A study of Mus musculus with 12 samples.

Results

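The response of mouse macrophages to CMA alone was followed here, by setting 3 libraries from cells given CMA against 3 libraries from unstimulated cells. These 6 of the 12 libraries of the study were chosen by their labels, and no measured value entered the choice. Both groups are wild-type (WT) primary bone marrow derived macrophages of strain C57Bl/6 at passage 1, which are macrophages grown out of bone marrow precursors in culture. The CMA group received the STING agonist for 2 h with no inhibitor, and the unstimulated group received neither agonist nor inhibitor. The other 6 libraries, from cells given C-178 (an inhibitor of STING) with or without CMA, served to estimate the spread of each gene and are otherwise used only where named. The CMA libraries are numbered 1 to 3. Headings of 2 unstimulated columns are identical, and these libraries are called a and b beside unstimulated library 1.

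CMA is a small molecule that binds and activates mouse STING, an adaptor in the membrane of the endoplasmic reticulum. STING normally answers a cyclic dinucleotide that the sensor cGAS makes when it meets DNA in the cytosol. Active STING brings the kinase TBK1 to the transcription factor IRF3, which switches on the interferon beta gene, and it also activates NF-κB, which drives inflammatory cytokine genes. Interferon then acts back on the cells through a receptor, JAK kinases and STAT factors, and switches on the interferon-stimulated genes.

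The CMA libraries held 7.126 to 7.826 M reads and the unstimulated libraries 13.907 to 17.449 M, so that every CMA library was shallower than every unstimulated one. Levels are the deposited normalised counts, and a fold change of a gene with few reads is understated on the log2 scale of value + 1 used for tests. All 23 macrophage markers were above 100 normalised counts in each of the 6 libraries, and their summed level was 666630 to 752308 with CMA and 685359 to 703961 without stimulation. The labels' extraction protocol speaks of embryonic fibroblasts. The summed level of 17 fibroblast markers was 1323.5, 2282 and 2001 normalised counts in CMA libraries 1 to 3, against 1157, 1108 and 1041 without stimulation. Neutrophil markers summed to 1169 to 1299 with CMA and to 1194 to 1590 without. The 17 lymphoid and natural killer markers summed to 784 to 931 with CMA and to 1017 to 1136 without. Of these, 6 or 7 were at 0 in each CMA library and 1 or 2 in each of the deeper unstimulated libraries. In every library 2 of the 17 exceeded 100. The 11 dendritic cell markers summed to 3025 to 3330 with CMA and to 1924 to 2312 without. Only 2 of the 11 exceeded 100 in each CMA library and 1 in each unstimulated library, so few genes carried these sums. The median marker stood at 3.67 to 13.2 with CMA and at 5.32 to 6.57 without. The Y-linked genes Ddx3y, Kdm5d, Uty and Eif2s3y were each above 300 in all 6 libraries and none of them was called in the main fit. A fit on the 6 libraries alone called 1 of them higher (Eif2s3y) and 1 lower (Kdm5d). The part of other cells in the results below was not tested. In bulk RNA, fewer cells of a type and less RNA per cell cannot be told apart. The labels do not say whether the 3 libraries of a group came from separate cultures or animals, so p-values measure the spread between these libraries only.

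CMA changed the levels of genes throughout the transcriptome within 2 h. Of 11440 genes tested, 2224 were called higher with CMA (19.4%) and 2047 lower (17.9%), together 37.3%, where a gene is called at a limma p-value under 0.05 after Benjamini-Hochberg adjustment over all genes. At an unadjusted p under 0.05 the counts were 2673 and 2586. With the reads of all libraries thinned to 7.0495 M, 2118 genes were called higher and 1919 lower. The rises were larger than the falls: 1259 genes rose and 863 fell by 2-fold or more, 571 and 203 by 4-fold or more, 153 and 7 by 16-fold or more, and 41 and 0 by 64-fold or more. The groups did not overlap for 7073 genes (61.8%), among them every gene called at 4-fold or more. The median log2 difference over all genes tested was -0.01. Numbers in parentheses after a gene are its log2 difference (CMA minus unstimulated), with ± for the SE of the fit, and a gene is said to rise or fall only where it was called.

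**Figure D1:**
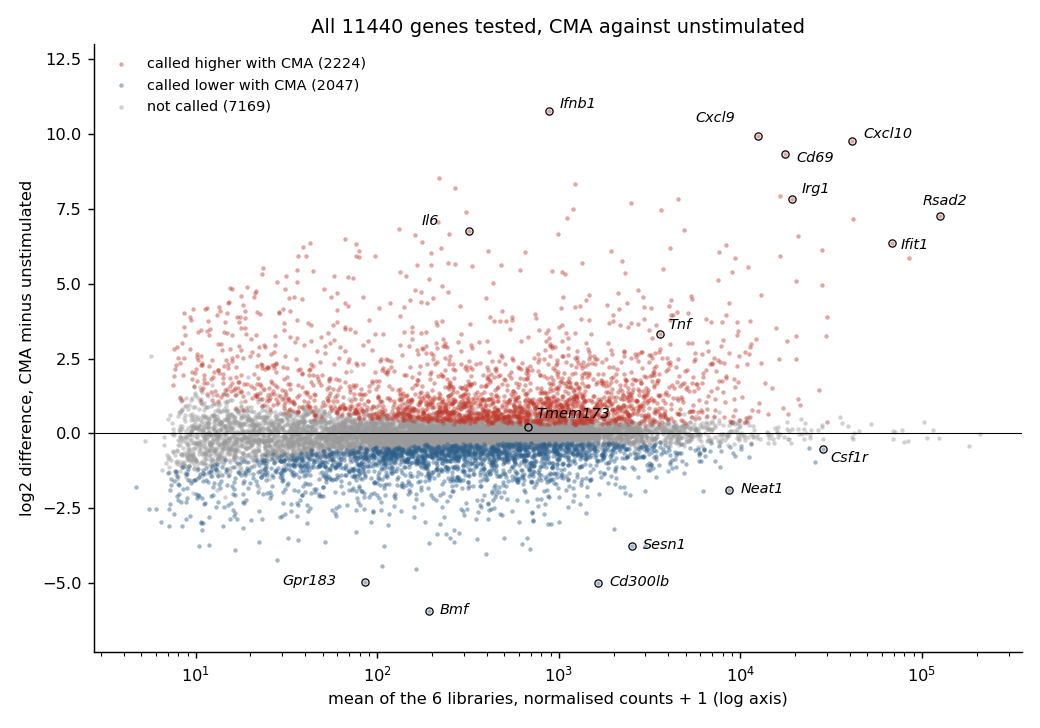
The log2 difference (CMA minus unstimulated) of each of the 11440 genes tested is plotted against its mean level in the 6 libraries (log axis). Rises reach a log2 difference of 10.75 (Ifnb1) and falls reach -5.92 (Bmf), and called genes lie at all levels.

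The share of all normalised counts in the genes called higher was 37.3%, 41.7% and 40.4% in CMA libraries 1 to 3, against 15.3%, 14.8% and 15.3% in the unstimulated libraries. The genes called lower held 6.88% to 7.77% with CMA and at least 16.8% in each unstimulated library. These shares describe the sizes of the called sets and are no test, since the calls chose the genes. The totals of normalised counts were 12.899 to 14.064 M with CMA and 10.229 to 10.573 M without. The difference of the mean totals, 3.1089 M, compares with a summed gain of 3.8131 M in the genes called higher and a summed change of -0.7757 M in those called lower. Rsad2, Ifit2, Ifit1, Cxcl10, Cmpk2, Mx1, Ifit3, Slfn5, Parp14, Iigp1, Irg1, Ifih1, Cd69, Fgl2 and Gbp5 had the 15 largest gains and held 29.8% of the summed gain. Per kilobase of exon, Rsad2 stood at 57646 normalised counts per kb with CMA and 376 without, Ifit1 at 50639.7 normalised counts per kb with CMA and 630.0 without, and Ifit2 at 42501 normalised counts per kb with CMA and 742 without.

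The gene of interferon beta had the largest rise of all genes tested. Of 21 interferon ligand genes 3 passed the filter on low values, and all of these were called higher. Each of the 3 stood at 0 without stimulation and exceeded 10 in every CMA library, which was enough to pass the filter. Silent genes of this list could thus enter the test by rising with CMA, so the count of 3 out of 3 is no evidence of a common direction. Interferon beta, encoded by Ifnb1 (chr4:88522025-88522774 in mm10, minus strand), is the ligand that macrophages make first after cytosolic DNA. Ifnb1 had 1424, 2211 and 1629.9 normalised counts in the CMA libraries, against no read in any unstimulated library, which puts it at least 2674-fold higher over a floor of 3 reads for the whole unstimulated group (log2 difference 10.75 ± 0.36, adjusted p = 1.1e-10). Of the interferon alpha genes, Ifna4 had 19.8, 75.0 and 38.5 normalised counts in the CMA libraries, against 0, 0 and 0 in the unstimulated libraries, and Ifna2 had 14.8, 41.4 and 33.0 normalised counts in the CMA libraries, against 0, 0 and 0 in the unstimulated libraries. They were at least 67.7-fold and at least 45.4-fold higher. Ifna5, which did not pass the filter on low values, had 6, 16 and 13 reads in the CMA libraries and none without stimulation. In each of these 4 genes CMA library 1 was the lowest and library 2 the highest. The interferon alpha genes are near-identical copies, so the share of reads assigned to each copy is uncertain. Ifng, the gene of interferon gamma, a product of lymphocytes, had 12, 8 and 2 reads in the CMA libraries and none in the unstimulated ones and was not tested. The interferon lambda genes Ifnl2 and Ifnl3 were listed at 0 in all 6 libraries.

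Further genes had reads with CMA and none without stimulation. Of 8950 entries with no read in any unstimulated library, 107 had more than 3 reads over the CMA libraries, and 63 had a read in each of the 3. After Ifnb1, the highest were Pdyn, the gene of the opioid peptide precursor prodynorphin, with 62.6, 101 and 86.3 normalised counts in the CMA libraries, and Il33, the gene of the alarmin interleukin 33, with 52.7, 94.7 and 78.9. Gcg, the glucagon gene, had 37.9, 47.4 and 49.6. Pdyn was at least 127-fold, Il33 at least 115-fold and Gcg at least 68.5-fold higher. Gcg lies beside Fap and Ifih1 on chromosome 2, and all of these neighbours rose, as described with the gene runs below. Serpina3i (at least 44.0-fold), the repressor gene Zbtb32 (26.4-fold) and Ildr1 (23.2-fold) completed the 10 highest with Ifna2, Ifna4 and Ifna5, and these folds are lower bounds too. In the other direction, 9464 entries had no read with CMA, and 165 of these had a read in all 3 unstimulated libraries, none high enough to be tested. Every unstimulated library was deeper than every CMA library, so the counts of the 2 directions cannot be compared.

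**Figure D2:**
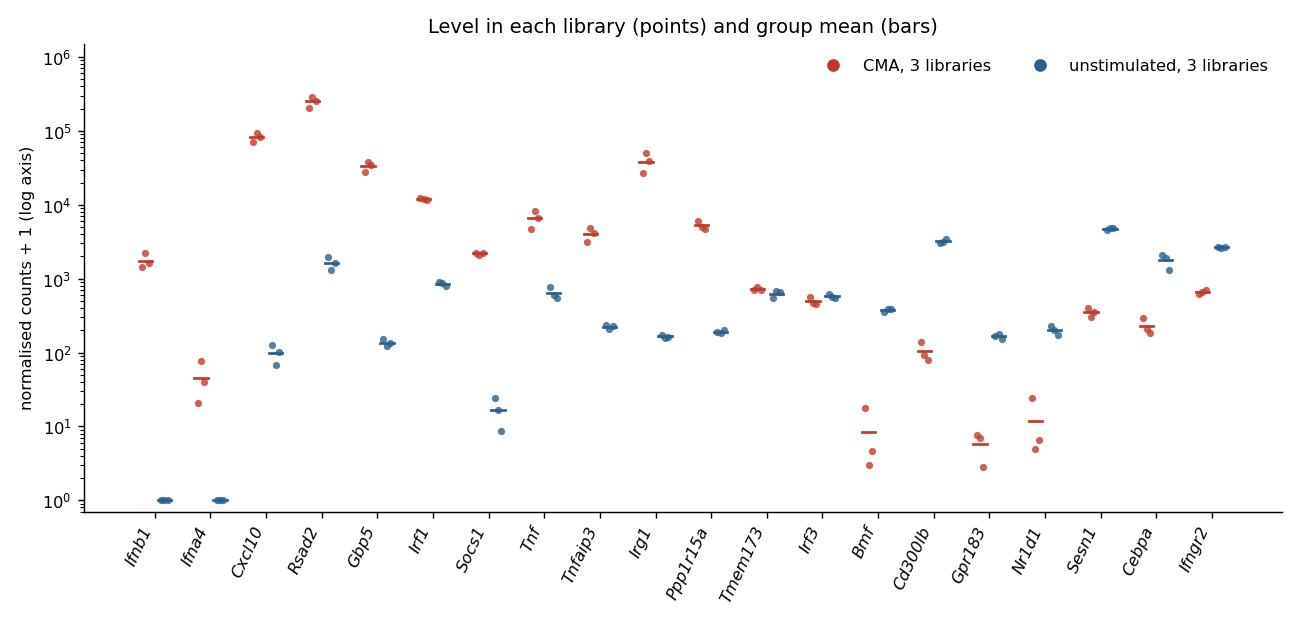
Normalised counts plus 1 (log axis) of 20 genes in each CMA library (left of each pair) and each unstimulated library (right), with group means as bars. The CMA points of the first 11 genes and of the last 7 genes lie wholly apart from the unstimulated points, while those of Irf3 overlap and those of Tmem173 lie close together.

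Nearly all antiviral effector genes rose. Of 22 tested GTPases of the guanylate-binding and immunity-related families, which attack the vacuoles of intracellular microbes, 22 rose, with a median log2 difference of 4.39. Gbp5, which assembles on pathogen vacuoles, had 27341, 37498 and 34104 normalised counts in the CMA libraries, against 149, 121 and 132 in the unstimulated libraries (log2 difference 7.93 ± 0.30). The groups did not overlap. Gbp4 (6.80), Iigp1 (6.58), Gbp2 (5.93) and Tgtp1 (6.01) rose by similar amounts on the log2 scale, and Gbp8 (1.60) rose least. All 7 tested members of the p200 HIN family, which bind nucleic acids, rose (median 3.72), from Aim2, the DNA sensor of an inflammasome (2.39), to Ifi205 (7.44). All 8 tested Schlafen genes rose, with Slfn9 at 4.34 and Slfn5 at 3.87. All 6 genes of ISGylation rose (median 3.22), which attaches the ubiquitin-like protein ISG15 to other proteins: Isg15 itself (4.45), the activating enzyme gene Uba7 (1.21), the conjugating enzyme gene Ube2l6 (2.49), the ligase gene Herc6 (3.94) and the deconjugating enzyme gene Usp18 (4.24). The families GBP, IRG, Schlafen and p200 contain close copies, among which reads may be shared.

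Of 25 restriction factor genes, 22 rose and 1 fell (median 2.70). Rsad2 encodes viperin, which makes a chain-terminating nucleotide, and its neighbour Cmpk2 encodes a nucleotide kinase. Rsad2 had 206411, 286401 and 256871 normalised counts in the CMA libraries, against 1935, 1319 and 1637 in the unstimulated libraries, and Cmpk2 rose by 7.15 on the log2 scale. The dynamin-like GTPase genes Mx1 (6.11) and Mx2 (6.18) and the exonuclease gene Isg20 (4.47) rose strongly. Bst2, the gene of the virion tether tetherin (0.61), and Samhd1, the gene of a dNTP hydrolase (1.43), rose less. The call of Bst2 was lost when single libraries were left out. The exception was Apobec1, an RNA editing enzyme gene (-0.89). All 8 tested oligoadenylate synthetase genes, whose products answer double-stranded RNA, rose, led by Oasl1 (6.04). In the IFIT and IFITM families 5 of 8 rose. Ifit1, which binds foreign RNA caps, had 125407, 143454 and 134636 normalised counts in the CMA libraries, against 2018, 1381 and 1622 in the unstimulated libraries. By contrast Ifitm1 (-0.09), Ifitm2 (-0.09) and Ifitm6 (0.13) were not called. Of 8 interferon-linked PARP genes and partners, 7 rose, by 2.34 to 3.27 on the log2 scale, and Parp8 was not called (-0.01 ± 0.25).

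Sensors and their signalling chain did not move as a block. Of 20 genes of STING signalling, 9 rose and 2 fell (median 0.08), the falls being 1 or 0 without unstimulated library 1 or a or any CMA library. Mb21d1, which encodes the DNA sensor cGAS, had 1304, 1729 and 1542 normalised counts in the CMA libraries, against 201, 157 and 182 in the unstimulated libraries. Ifi204 (3.10), Trex1, the gene of a nuclease that clears cytosolic DNA (2.04), Trim56 (1.94) and Lrrc8c, a subunit gene of a volume-regulated channel (1.92), rose as well. Tbk1 (0.73) and Ikbke (0.62), the kinase genes, rose modestly, and the call of Ikbke was lost under quantile normalisation. Tmem173, the gene of STING, had 700.5, 764 and 696 normalised counts in the CMA libraries, against 549.6, 670.0 and 652 in the unstimulated libraries, and was not called (log2 difference 0.21 ± 0.15, adjusted p = 0.293). Irf3 had 569, 462 and 459 normalised counts in the CMA libraries, against 625, 565 and 539 in the unstimulated libraries, and the groups overlapped.

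Among RNA sensors and Toll-like receptors 14 of 28 rose and 8 fell. The RNA helicase genes Ifih1 (5.10), Ddx58 (3.16) and Dhx58 (2.73), the double-stranded RNA receptor gene Tlr3 (3.02) and the kinase gene Eif2ak2 (2.69) rose. Adaptor genes split: Myd88, which serves most Toll-like receptors, rose (1.21), while Mavs, which serves the RNA helicases (-0.58), Ticam1, which serves TLR3 (-0.56), and Ticam2 (-1.96) and Tirap (-0.92), which serve TLR4, fell. The call of Ticam1 was lost when single libraries were left out. Ticam2 had 211, 184 and 173 normalised counts in the CMA libraries, against 830.2, 713 and 674 in the unstimulated libraries. Tlr1 (-1.03) and Tlr13 (-1.06), receptors for bacterial lipopeptide and ribosomal RNA, fell too.

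Most transcription factor genes of the interferon loop rose, and most of its receptor chain genes fell. Of 8 tested IRF genes 6 rose and 1 fell. Irf1 had 12391, 12004 and 11742 normalised counts in the CMA libraries, against 889, 866 and 805 in the unstimulated libraries (log2 difference 3.82 ± 0.16), and the 3 CMA libraries were close to each other. Irf7, which amplifies interferon alpha, had 17229.9, 21039.6 and 19309.5 normalised counts in the CMA libraries, against 3219, 2989 and 2938 in the unstimulated libraries. Irf4 averaged 6.82 normalised counts with CMA and 22.9 without, and fell (-1.75). Stat2 (2.34), Stat3 (1.24) and Jak2 (2.19) rose. The receptor chain genes Ifnar1 of type I interferon (-0.91), Ifngr1 (-1.06) and Ifngr2 (-2.02) of interferon gamma and Il10rb, shared by interferon lambda and interleukin 10 (-1.05), fell, and Ifnar2 was not called (-0.22 ± 0.13). Ifngr2 had 623, 653 and 701 normalised counts in the CMA libraries, against 2714, 2609.5 and 2698 in the unstimulated libraries.

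**Figure D3:**
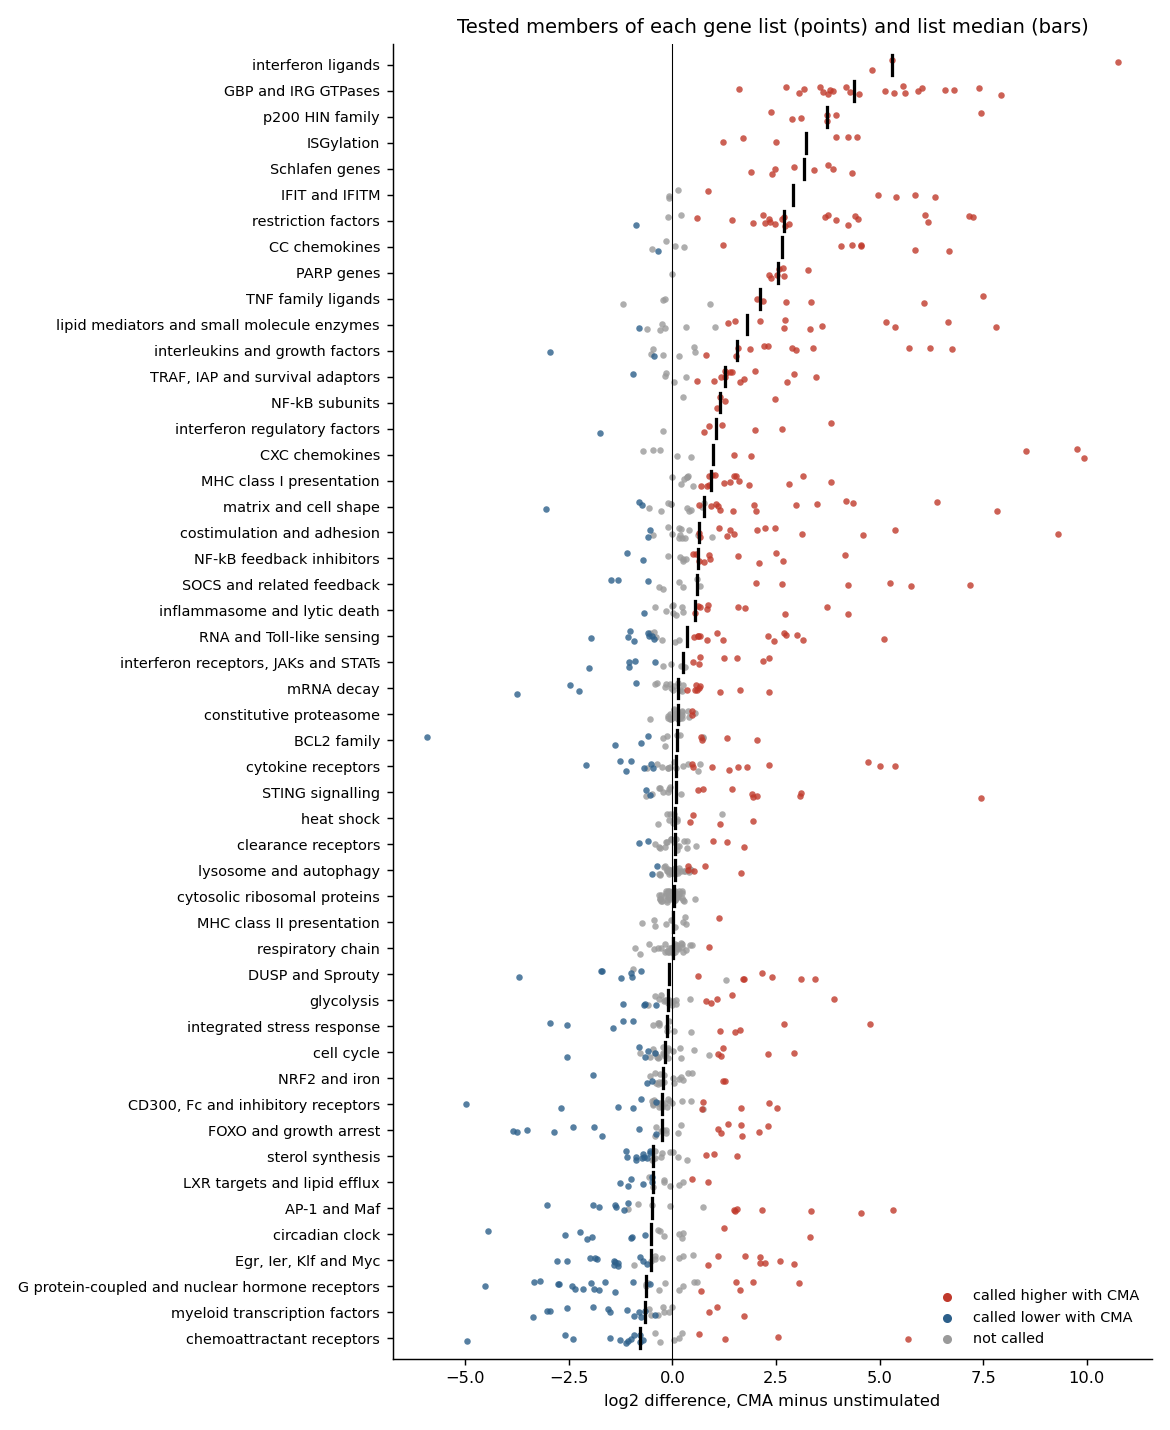
Log2 differences (CMA minus unstimulated) of the tested members of the gene lists drawn are shown as points, coloured by call, with the list median as a bar. Lists of antiviral effectors lie wholly or almost wholly above 0, receptors and myeloid factors lean below 0, and several regulator families spread to both sides.

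Chemokine genes rose in a selective pattern. Cxcl9, Cxcl10 and Cxcl11 encode the 3 ligands of CXCR3, the receptor of activated T cells. Cxcl10 (chr5:92346638-92348889 in mm10, minus strand) had 71631, 92359 and 83459 normalised counts in the CMA libraries, against 124, 66.3 and 101 in the unstimulated libraries (log2 difference 9.76 ± 0.21, adjusted p = 3e-12). Cxcl9 had 18728, 32455 and 23878 normalised counts in the CMA libraries, against 27.4, 23.9 and 20.9 in the unstimulated libraries. The neutrophil attractant gene Cxcl2 had 34.6, 67.1 and 45.9 normalised counts in the CMA libraries, against 12.2, 10.7 and 13.3 in the unstimulated libraries, a smaller rise (1.90). Of 12 CC chemokine genes 7 rose and 1 fell. Ccl4, an inflammatory chemokine gene, had 14018, 22743 and 18511 normalised counts in the CMA libraries, against 288, 299 and 351 in the unstimulated libraries, and Ccl3 (4.34), Ccl5 (4.06) and the monocyte attractant genes Ccl2 (4.56), Ccl7 (4.55) and Ccl12 (6.67) rose with it. Ccl9 averaged 4771 normalised counts with CMA and 4568 without, and was not called (0.07 ± 0.14), and Ccl6 fell (-0.36), a call lost when single libraries were left out.

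Among chemoattractant receptor genes falls outnumbered rises. Of 21 tested, 12 fell and 4 rose (median -0.77). Gpr183, which guides cells along oxysterols, had 6.59, 5.92 and 1.84 normalised counts in the CMA libraries, against 166, 175 and 151 in the unstimulated libraries (log2 difference -4.96 ± 0.43), with every CMA library far below every unstimulated one. S1pr1, the receptor gene of sphingosine 1-phosphate (-2.59), C5ar2 (-2.39) and C5ar1 (-0.77) of the complement fragment C5a, and the chemokine receptor genes Ccr1 (-1.11) and Ccr2 (-0.92) fell, as did Cx3cr1, the receptor gene of fractalkine. Ccrl2, a receptor that presents chemerin without signalling, rose (5.70) and averaged 2634 normalised counts with CMA and 48.9 without.

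Among 20 interleukin and growth factor genes 12 rose and 2 fell (median 1.55), the falls being 1 without unstimulated library 1 or b or CMA library 1 or 3. Il6 had 562, 724 and 608 normalised counts in the CMA libraries, against 5.32, 4.18 and 5.06 in the unstimulated libraries, Il27 rose by 5.70, and Il15, the survival cytokine of natural killer cells, by 2.98. Il1b had 224, 219 and 226 normalised counts in the CMA libraries, against 120.1, 116 and 143 in the unstimulated libraries, a rise of 0.82 ± 0.16 that was small beside that of Il1a (3.39). Il12b (0.54 ± 0.39) was not called, and Il12a and Il23a were at or near 0 in all 6 libraries. The genes of the interleukin 1 receptor antagonist Il1rn (1.88) and of Il10 (1.53), which dampen inflammation, rose too. Pdgfb, a platelet-derived growth factor gene, fell (-2.95). Of 10 TNF family ligand genes 6 rose. Tnf had 4762, 8209 and 6629.8 normalised counts in the CMA libraries, against 769, 597 and 549 in the unstimulated libraries. Tnfsf15 (7.49) and Tnfsf10, the gene of the death ligand TRAIL (6.07), rose further.

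Cytokine receptor genes split by receptor. Of 29 tested, 10 rose and 7 fell, beside 19.4% and 17.9% of all genes. Cd40 (5.38), Il15ra, which presents interleukin 15 (5.02), Il18rap (4.71) and the death receptor gene Fas (2.32) rose. Il6ra, the interleukin 6 receptor (-2.08), Tgfbr1 (-1.27), Tnfrsf1b, the second TNF receptor (-1.12), and Il4ra (-0.68) fell. Il6st, the signalling chain shared by interleukin 6 and its relatives, rose (1.36). Csf1r, the receptor of the growth factor these cells depend on, had 20831, 25311 and 23964 normalised counts in the CMA libraries, against 32276, 33865 and 33745 in the unstimulated libraries (log2 difference -0.52 ± 0.17, adjusted p = 0.0299), and its ligand gene Csf1 rose (2.31). The call of Csf1r was lost when single libraries were left out.

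Many feedback inhibitor genes rose. Socs1, which blocks JAK kinases, had 2235, 2118 and 2238 normalised counts in the CMA libraries, against 23.6, 15.5 and 7.59 in the unstimulated libraries (log2 difference 7.18 ± 0.44). The 3 CMA libraries were close to each other and far above the unstimulated ones. Socs3 (5.76), Cish (5.24), the kinase gene Pim1 (4.23) and the phosphatase gene Ptpn2 (2.02) rose, and Socs5 (-1.49) and Pim2 (-1.32) fell. Of 5 NF-κB subunit genes 4 rose, Rel most (2.47), and Rela was not called (0.24 ± 0.19). Of 18 genes listed as NF-κB inhibitors 11 rose and 2 fell. Tnfaip3, which encodes A20, had 3166, 4770.4 and 4209 normalised counts in the CMA libraries, against 232, 205 and 229 in the unstimulated libraries, and Nfkbia, which encodes IκBα, had 5333, 5826 and 5483 normalised counts in the CMA libraries, against 1039, 924 and 962 in the unstimulated libraries. Tnip1 (-0.72), whose call was lost with the GC correction, and Tnfaip8 (-1.09), whose place among inhibitors is uncertain, fell. Of 19 adaptor and survival genes of TNF receptor signalling 14 rose, among them the ligase gene Peli1 (3.46), the caspase 8 inhibitor gene Cflar (2.76), the kinase gene Ripk2 (2.93) and Birc3 (1.98), and the kinase gene Map3k14 fell (-0.94).

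Antigen presentation rose for class I and hardly for class II. Of 22 class I genes 15 rose (median 0.92). Nlrc5, the transactivator of class I genes, had 4468, 6280.3 and 5849.7 normalised counts in the CMA libraries, against 444, 361 and 363 in the unstimulated libraries. The peptide transporter genes Tap1 (2.82) and Tap2 (1.03), the loading factor Tapbp (1.53) and the immunoproteasome genes Psmb10 (1.48), Psmb9 (1.24) and Psmb8 (0.96) rose. The class I molecules themselves differed: H2-T10 (3.15) and H2-Q4 (1.86) rose, while H2-K1 (0.49 ± 0.21), B2m (0.37 ± 0.32) and H2-D1 (-0.01 ± 0.21) were not called. Of 10 class II genes 1 rose, the transactivator gene Ciita (1.11), which averaged 60.0 normalised counts with CMA and 27.3 without. The call of Ciita was lost when single libraries were left out. The fit on the 6 libraries alone called 4 of the 10 higher and 2 lower. Of 27 costimulation and adhesion genes 13 rose and 2 fell, the falls being 1 when any 1 library other than CMA library 2 was left out. Cd69, an early activation antigen of leukocytes, had 29121, 41118 and 35385 normalised counts in the CMA libraries, against 51.7, 50.2 and 60.1 in the unstimulated libraries. Cd274, the gene of the checkpoint ligand PD-L1 (4.61), Icam1 (2.47) and Cd86 (1.49) rose, and Cd80 was not called (-0.09 ± 0.16).

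Cell death genes were drawn in both directions. Of 19 inflammasome and lytic death genes 10 rose and 1 fell, with the lipopolysaccharide sensor gene Casp4 (4.24), the nucleic acid sensor gene Zbp1 (3.73), the necroptosis effector gene Mlkl (2.72) and Casp1 (1.76) among the rises. The fall was that of Pycard, the adaptor gene of inflammasomes (-0.70), while Nlrp3 (0.24 ± 0.24) and Gsdmd (0.09 ± 0.16) were not called. In the BCL2 family 4 of 15 rose and 4 fell, beside 19.4% and 17.9% of all genes. Bmf, which encodes a BH3-only promoter of apoptosis, had 16.5, 1.97 and 3.67 normalised counts in the CMA libraries, against 357, 383 and 388 in the unstimulated libraries (log2 difference -5.92 ± 0.46), the largest fall of all 11440 genes. Bcl2l11, which encodes the related BIM (-1.39), fell as well, as did the survival genes Mcl1 (-0.58) and Bcl2l1 (-0.76), and the survival gene copies Bcl2a1d (2.05) and Bcl2a1b (1.32) rose.

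Enzymes for small mediators rose in 11 of 18 cases and fell in 1. Irg1, whose product makes the antimicrobial metabolite itaconate, had 26844, 49423 and 39087 normalised counts in the CMA libraries, against 174, 157 and 161 in the unstimulated libraries (log2 difference 7.82 ± 0.28). Nos2, the inducible nitric oxide synthase gene, had 179.7, 462 and 314 normalised counts in the CMA libraries, against 2.28, 1.79 and 1.90 in the unstimulated libraries, so its largest and smallest CMA values differed more than those of Irg1. Hdc for histamine (5.38), Ch25h for 25-hydroxycholesterol (5.15), Ptgs2 for prostanoids (3.61), Gch1 for the cofactor of nitric oxide synthase (2.71) and Nampt for NAD (2.70) rose, and Ptgs1 fell (-0.82). Of 24 glycolysis genes 5 rose and 4 fell, shares near the 19.4% and 17.9% of all genes, and the falls were 2 without unstimulated library a or CMA library 1. The lactate and pyruvate carrier gene Slc16a1 (3.90) and Pfkfb3 (1.07) rose, Pfkfb4 (-1.20) and Hk2 (-0.68) fell, and Ldha (0.09 ± 0.15) and Hif1a (0.42 ± 0.21) were not called.

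The largest falls were spread over receptors, regulators of transcription and RNA decay, and metabolic genes. Cd300lb, an activating receptor gene of myeloid cells, had 137, 92.8 and 77.1 normalised counts in the CMA libraries, against 2998, 3159 and 3408 in the unstimulated libraries (log2 difference -4.99 ± 0.25). Sesn1, a stress-induced inhibitor of mTORC1 signalling, had 396, 300.0 and 354 normalised counts in the CMA libraries, against 4541, 4803 and 4802 in the unstimulated libraries. Arrdc3, an arrestin gene, had 117, 80.9 and 73.4 normalised counts in the CMA libraries, against 1290.1, 1238 and 1332 in the unstimulated libraries. In each of these every CMA library lay far below every unstimulated one. Others among the 15 largest were Plekhg3 (-4.04), Slco4a1 (-3.75), the MAP kinase phosphatase gene Dusp7 (-3.69), the kinase gene Nuak1 (-3.65), the haematopoietic factor gene Lyl1 (-3.62), the cytokine gene Il16 (-3.54) and the glycosidase gene Engase (-3.50). In normalised counts the largest losses were those of Sirpa, which encodes the receptor of the "don't eat me" signal CD47 (-0.94), the long noncoding RNA Neat1 (-1.89), Csf1r, Lpl, the lipoprotein lipase gene (-0.50), and Maf (-1.91). Neat1 had 3402, 4026 and 3519 normalised counts in the CMA libraries, against 17319, 12536 and 11338 in the unstimulated libraries.

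Lineage transcription factors of macrophages fell in 13 of 23 cases and rose in 3 (median -0.66). Cebpa, a factor of early myeloid differentiation, had 293, 209 and 182 normalised counts in the CMA libraries, against 2098, 1928 and 1320.4 in the unstimulated libraries (log2 difference -2.96 ± 0.36). The lysosome regulator gene Tfeb (-3.36), Id3 (-2.55), Maf (-1.91), Cebpd (-1.56), the nuclear receptor gene Rxra (-1.51) and Spi1, which encodes PU.1 (-0.92), fell, and Mitf (1.73) and Irf8 (0.89) rose. Of 23 tested macrophage markers 3 rose and 5 fell, from -3.04 to 2.53 on the log2 scale (median -0.03), and the falls were 3 without unstimulated library 1 or CMA library 1 or 3. Together this is no more than the 37.3% of all genes in the main fit. Under quantile normalisation 3 of the 23 markers rose and 13 fell (median -0.51). Lyz2 (-0.03 ± 0.18), Cd68 (-0.04 ± 0.23) and Itgam (0.23 ± 0.16) were not called. Of 31 lysosome and autophagy genes 5 rose and 2 fell, shares under the 19.4% and 17.9% of all genes, and these counts were 3 and 1 when any 1 of the 6 libraries was left out. Under quantile normalisation they were 2 and 12. Among 22 clearance receptor genes 3 rose, including Mertk (1.31) and Axl (0.99), receptors for dying cells, and 2 fell, Stab1 (-0.80) and Scarb1 (-0.59). Both shares were under the 19.4% and 17.9% of all genes, while quantile normalisation gave 3 rises and 8 falls. In the fit without quantile normalisation, the call of Stab1 was lost without unstimulated library 1 or CMA library 1, which left 1 fall.

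Receptors for small hormones and lipids fell in 15 of 29 cases and rose in 5 (median -0.65). Cnr2, the cannabinoid receptor gene of immune cells, had 24.7, 5.92 and 12.8 normalised counts in the CMA libraries, against 309, 322 and 293 in the unstimulated libraries. P2ry6, the receptor gene for UDP, had 452, 373 and 359.8 normalised counts in the CMA libraries, against 3537, 3703 and 3627 in the unstimulated libraries. In both the groups were far apart, with the CMA libraries lower. The retinoic acid receptor genes Rarg (-2.43) and Rara (-1.77) and the lysophosphatidic acid receptor genes Lpar5 (-2.36) and Lpar6 (-1.90) fell. Hcar2, the niacin receptor gene (3.05), P2ry14 (1.95), Gpr84, a receptor gene for fatty acids (1.62), and the glucocorticoid receptor gene Nr3c1 (1.52) rose.

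Of 28 CD300, Fc and inhibitory receptor genes 6 fell and 5 rose in the main fit, shares near the 17.9% and 19.4% of all genes. The falls depended on the fit. Under quantile normalisation 17 fell and 5 rose (median -0.64), where 2667 of all 11440 genes fell. With the 6 libraries alone 12 fell and 7 rose. Beside Cd300lb, its neighbours in the family Cd300c (-2.69) and Cd300a (-0.75) fell, while Cd300lf, an inhibitory member, rose (0.71). The activating immunoglobulin receptor genes Fcgr1 (2.53) and Fcgr4 (2.32) and the inhibitory one, Fcgr2b (0.73), rose, and Trem1, an amplifier of inflammation, fell (-1.30). Among 15 genes of lipid efflux and other LXR targets 6 fell and 2 rose, beside 17.9% and 19.4% of all genes. The cholesterol exporter gene Abca1 fell (-0.71) and Abcg1, which encodes another exporter, rose (0.85). The 2 rises were 1 without unstimulated library 1 or a or CMA library 2 or 3. Of 14 heat shock genes 4 rose, Hspa1a most (1.94), beside 19.4% of all genes, and 2 rose without unstimulated library 1 or CMA library 2. The calls of Trem1, Abca1 and Hspa1a were lost when single libraries were left out, and those of Trem1 and Hspa1a also with edgeR.

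Clock genes fell in 8 of 16 cases and rose in 2. Nr1d1, whose product REV-ERBα represses inflammatory genes, had 23.1, 3.95 and 5.51 normalised counts in the CMA libraries, against 229, 202 and 169 in the unstimulated libraries (log2 difference -4.44 ± 0.44). Its paralogue Nr1d2 rose (1.25). Per1 (-1.93), Per2 (-2.07), Dbp (-2.22) and Bhlhe41 (-2.60) fell, Nfil3, a repressor of Dbp targets, rose (3.33), and the core activator genes Arntl (-0.35 ± 0.18) and Clock (0.26 ± 0.25) were not called. Of 24 genes of FOXO factors and growth arrest 9 fell and 7 rose. Foxo3 (-2.40), Irs2 (-2.86), Tsc22d3, a glucocorticoid target (-3.50), and the cell cycle inhibitor gene Cdkn1b (-1.90) fell, while Cdkn1a (1.67), Gadd45b (2.08) and Sesn3 (1.65) rose.

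In several regulator families, members of like function moved in opposite directions. Over all genes tested 19.4% rose and 17.9% fell, and whether these families split more than other genes was not tested. Of 25 mRNA decay genes 9 rose and 4 fell, the rises being 5 without unstimulated library a or CMA library 2 or 3. Zfp36, which destabilises cytokine transcripts, rose (1.64), while its paralogues Zfp36l1 (-2.24) and Zfp36l2 fell. Zfp36l2 had 458, 355 and 402 normalised counts in the CMA libraries, against 6789, 5525 and 4284 in the unstimulated libraries. Among 19 AP-1 and Maf genes 7 rose and 7 fell: the small Maf genes Maff (4.56) and Mafk (3.36) rose and Mafg fell (-1.77), while Jun (1.49) and Junb (1.56) rose, Jund fell (-1.37) and Fos was not called (-0.07 ± 0.27). Of 29 early response genes 8 rose and 13 fell. Egr1 (2.24) rose and Egr3 fell (-1.38), Nr4a2 (2.11) and Nr4a3 (2.11) rose and Nr4a1 fell (-1.88), and Myc fell (-1.40) where Mycl rose (2.95). Of 16 DUSP and Sprouty genes 7 rose and 7 fell, from Dusp16 (3.44) to Dusp7.

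Stress response genes also went both ways. Of 19 genes of the integrated stress response 5 rose and 5 fell, beside 19.4% and 17.9% of all genes. Ppp1r15a, which encodes GADD34, the phosphatase subunit that reverses eIF2 phosphorylation, had 5937, 5070.4 and 4763 normalised counts in the CMA libraries, against 188, 182 and 201 in the unstimulated libraries (log2 difference 4.78 ± 0.13). Atf3 (1.52) and the chaperone gene Hspa5 (1.16) rose. Atf4 (0.05 ± 0.21) and Ddit3 (-0.46 ± 0.39), which encode ATF4 and CHOP, were not called, and Herpud1 (-2.96), Ddit4 (-2.55) and Eif2ak3, the gene of the kinase PERK (-1.19), fell. Of 23 sterol synthesis genes 10 fell, Sqle and Mvd most (-1.11 and -1.11), and 3 rose, Insig1, which restrains the pathway, most (1.55). Slc40a1, the iron exporter gene, fell (-1.92) and Hmox1 was not called (-0.40 ± 0.18). Of 22 NRF2 and iron genes 2 rose and 3 fell, shares under the 19.4% and 17.9% of all genes. The rises were 1 when any 1 library other than CMA library 1 was left out. Under quantile normalisation 2 rose and 11 fell.

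Housekeeping lists gave few calls. Of 41 ribosomal protein genes 0 were called by limma, and the medians were 0.04 for these, 0.01 for 32 respiratory chain genes (1 higher) and 0.14 for 27 proteasome genes (2 higher, and 1 or 0 when any 1 of the 6 libraries was left out). Also 0 of the 41 had an unadjusted p under 0.05, and edgeR and DESeq2 called 0 as well, while a limma fit on the 6 libraries alone called 4 higher and 5 lower. Quantile normalisation, which moved the median of all genes by -0.10 and left 42.3% of all calls higher, against 52.1% without it, turned these 3 medians to -0.32, -0.17 and -0.06. It also turned the small positive medians of the lists for RNA and Toll-like sensing, cytokine receptors, BCL2 family, class II, mRNA decay, heat shock, clearance receptors and lysosome, so no direction of those lists as a whole is given here. Among 30 cell cycle genes 5 rose and 5 fell, shares under the 19.4% and 17.9% of all genes, and the falls were 3 without unstimulated library 1 or b or CMA library 1 or 2. Ccnd2 (2.93) and Ccne1 (2.32) were among the rises, and E2f2 fell most (-2.55).

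Matrix and cell shape genes rose in 14 of 27 cases and fell in 3. Mmp13, the gene of a collagenase, had 5533, 12434 and 9143 normalised counts in the CMA libraries, against 44.1, 31.1 and 36.1 in the unstimulated libraries (log2 difference 7.83 ± 0.66). Fap, which encodes a surface protease known from activated fibroblasts, had 169.8, 459.9 and 418 normalised counts in the CMA libraries, against 3.04, 2.99 and 2.53 in the unstimulated libraries. Tnn, the gene of the matrix protein tenascin N, had 101, 274 and 207 normalised counts in the CMA libraries, against 7.60, 9.55 and 9.49 in the unstimulated libraries. In each of the 3, CMA library 1 was the lowest of the CMA libraries and was still far above the unstimulated ones. Of 15 tested fibroblast markers 3 rose and 1 fell (median 0.66), beside 19.4% and 17.9% of all genes. Postn (0.99), Col1a1 (0.82) and Col6a1 (0.61) were higher with CMA and Thy1 (-2.31) lower. The count of rises depended on the fit and the libraries: it was 10 with the 6 libraries alone, 7 with DESeq2, 6 with edgeR, 8 without CMA library 1, 0 without CMA library 2 or unstimulated library b, and 1 without CMA library 3 or unstimulated library a. The defining marker Pdgfra averaged 11.7 normalised counts with CMA and 15.5 without and was not called, and Lum was listed at 0 in all 6 libraries. The part of these cells in the rise of matrix genes was not tested. Rhob, a small GTPase gene, fell (-3.04).

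Some of the rising genes lay side by side. Where at least 3 tested genes in a row, with gaps of at most 200 kb, were called at 2-fold or more in one direction, 40 runs with 171 genes were higher with CMA and 10 runs with 30 genes were lower. This is 13.6% of the 1259 genes that rose and 3.48% of the 863 that fell by that much. How many runs would arise from the number of called genes alone was not tested, and more genes rose than fell. The longest, of 11 genes on chromosome 1, started at Aim2 and held the p200 HIN genes. A run of 9 on chromosome 11 held the GTPase genes Irgm1, Gm5431, Gm12185, Tgtp1, Tgtp2 and Ifi47 together with Olfr56, an olfactory receptor gene (6.09). Runs of 7 held Phf11 genes on chromosome 14, Gbp5 to Gtf2b on chromosome 3 and Trim30 genes on chromosome 7, and runs of 6 held the Ifit genes on chromosome 19, and Gbp and Oas genes on chromosome 5. Genes of other families stood inside runs: Gcg (5.51), Fap (6.38) and Gca (3.88) flanked Ifih1, and Fam3b (2.65) stood between Mx1 and Mx2. How reads in overlapping genes were assigned is not known from the labels, so values of genes that overlap a neighbour are uncertain. Falling runs had 3 genes each, such as Arhgap19, Frat1 and Frat2 on chromosome 19.

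**Figure D4:**
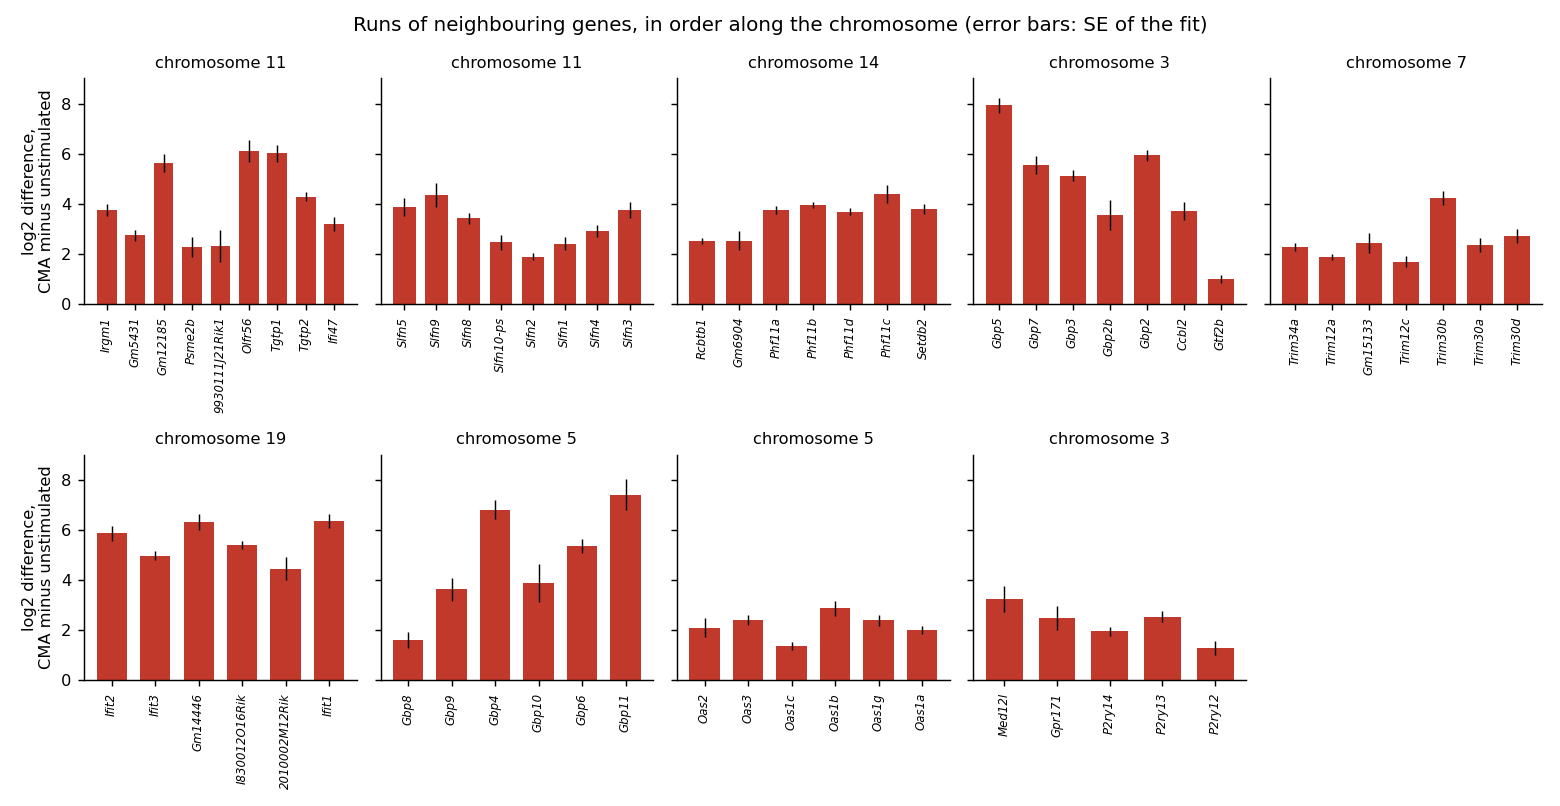
Of the 10 longest runs of neighbouring genes called higher by 2-fold or more, 9 are drawn in order along each chromosome, with the log2 difference (CMA minus unstimulated) as bars and its SE. The run that starts at Irgm1 on chromosome 11 has 9 genes, and the Ifit run on chromosome 19 lies between 4.45 and 6.34 in every gene.

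The promoters of the rising genes were read for letters that interferon and NF-κB factors are known to bind. Windows were the RefSeq promoters of build GRCm38.p6, from 250 bases before to 50 after the start, available for 9185 of the tested genes. The core of the interferon-stimulated response element, searched as GAAANNGAA on both strands, was in 22.6% of the windows of genes that rose 4-fold or more (98 of 433). It was in 9.78% of those of genes that rose 2 to 4-fold, 6.41% of those that fell 4-fold or more (10 of 156), 3.36% of those that fell 2 to 4-fold and 6.70% of those not called, against 8.57% of all 27025 windows. The NF-κB letters GGANTTTCC were in 4.62%, 2.40%, 1.28%, 1.68% and 0.987% of the same classes, against 1.23% of all windows. Both were present in 6 of the 433 windows. AP-1 letters (TGANTCA) stood in 12.5% of the windows of genes that rose 4-fold or more and 4.69% of those not called, and E-box letters (CACGTG) in 7.85% and 10.6%. The CRE letters TGACGTCA stood in 2.08% and 3.57%. Read the other way, 32.6% of the 694 genes with the interferon letters rose and 11.7% fell, against 17.9% and 18.6% of the 8491 genes without them. A match is a description of the sequence and not a site shown to be bound.

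Of 6 genes with large rises, the 250 bases before the start are shown because they hold these letters in different combinations, with the matches in capitals. Cxcl10 and Gbp5 hold both kinds, Ifnb1 and Irg1 the NF-κB letters alone, and Rsad2 and Ifit1 the interferon letters alone. The sequences are RefSeq's, build GRCm38.p6, written 5′ to 3′ on the strand of the gene.
Cxcl10 (chr5:92348890-92349139, minus strand): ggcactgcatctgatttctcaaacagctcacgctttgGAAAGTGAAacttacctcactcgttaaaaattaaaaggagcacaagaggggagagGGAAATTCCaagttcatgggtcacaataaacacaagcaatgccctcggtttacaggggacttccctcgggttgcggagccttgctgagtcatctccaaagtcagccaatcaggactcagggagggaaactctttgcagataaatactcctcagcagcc
Gbp5 (chr3:142496684-142496933, plus strand): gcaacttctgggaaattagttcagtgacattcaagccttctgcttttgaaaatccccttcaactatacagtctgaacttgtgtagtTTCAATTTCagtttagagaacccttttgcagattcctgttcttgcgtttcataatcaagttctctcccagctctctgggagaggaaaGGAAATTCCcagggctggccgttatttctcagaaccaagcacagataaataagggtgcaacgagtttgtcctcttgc
Ifnb1 (chr4:88522795-88523044, minus strand): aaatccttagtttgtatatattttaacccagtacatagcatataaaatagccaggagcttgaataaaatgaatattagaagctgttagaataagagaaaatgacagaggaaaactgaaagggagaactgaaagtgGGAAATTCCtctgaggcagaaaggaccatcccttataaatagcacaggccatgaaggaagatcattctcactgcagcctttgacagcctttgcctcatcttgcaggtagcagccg
Irg1 (chr14:103046762-103047011, plus strand): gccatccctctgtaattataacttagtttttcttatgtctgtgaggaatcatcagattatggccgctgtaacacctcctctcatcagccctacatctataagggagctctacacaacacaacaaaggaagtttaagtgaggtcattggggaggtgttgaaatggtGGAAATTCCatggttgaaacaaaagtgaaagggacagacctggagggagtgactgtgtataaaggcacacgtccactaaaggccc
Rsad2 (chr12:26456453-26456702, minus strand): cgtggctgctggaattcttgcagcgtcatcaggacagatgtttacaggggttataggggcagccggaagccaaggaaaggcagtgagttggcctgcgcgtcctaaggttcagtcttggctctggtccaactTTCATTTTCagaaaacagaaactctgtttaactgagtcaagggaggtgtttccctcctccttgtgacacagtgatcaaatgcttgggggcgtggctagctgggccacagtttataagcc
Ifit1 (chr19:34640639-34640888, plus strand): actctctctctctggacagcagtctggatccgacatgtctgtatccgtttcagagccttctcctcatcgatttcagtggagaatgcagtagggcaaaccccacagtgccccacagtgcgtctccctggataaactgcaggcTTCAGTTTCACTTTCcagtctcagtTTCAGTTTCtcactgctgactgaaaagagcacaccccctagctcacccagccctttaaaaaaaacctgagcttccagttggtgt

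In Cxcl10 the interferon letters begin 213 and the NF-κB letters 158 bases before the start, and in Gbp5 they begin 164 and 77 bases before it. The NF-κB letters begin 115 bases before the start of Ifnb1 and 85 before that of Irg1. Rsad2 holds the interferon letters once, at 119 bases, and Ifit1 holds them 3 times, at 109, 103 and 84 bases, with matches that overlap. Ifnb1 shows no match to the interferon letters as spelled here, which says only that these letters are not in this window.

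Calls also followed the base composition and span of the genes. In the fifth of genes with the lowest GC content of the longest transcript (median 41.3%), 29.6% were called higher and 9.20% lower with CMA, and in the fifth with the highest GC (median 57.5%), 9.98% and 29.5%. Genes of the shortest genomic span (median 4.78 kb) were called higher in 11.5% of cases and lower in 22.6%, and those of the longest span (median 113 kb) in 28.3% and 12.3%. A fit with each library's trend on GC taken off, an alternative chosen after this was seen, kept 542 of the 543 rises and 192 of the 194 falls of 4-fold or more that had a GC value, and 1885 of 2136 rises and 1566 of 1948 falls of any size. Small changes were thus lost more often than large ones.

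**Figure D5:**
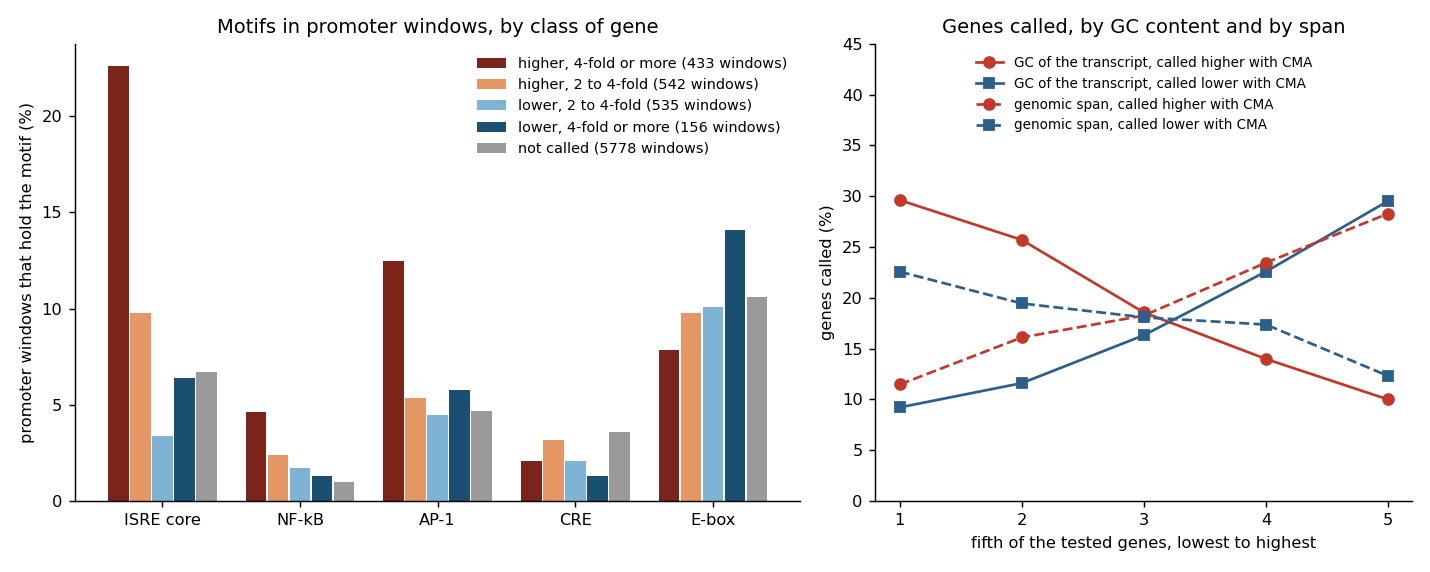
Left, the percentage of promoter windows that hold each motif, by class of gene (CMA against unstimulated). Right, the percentage of genes called higher and lower with CMA in 5 equal classes of GC content and of genomic span: rises were called in 29.6% of the class lowest in GC and in 9.98% of the class highest in GC, and falls in 9.20% and 29.5%.

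The 3 CMA libraries differed in the size of the response. CMA library 1 was the lowest of the 3 in 462 of the 571 genes that rose 4-fold or more and library 2 the highest in 425, while among the 7169 genes not called these shares were 37.0% and 33.0%. The median log2 difference of the 571 genes from the unstimulated mean was 2.77, 3.14 and 3.05 in libraries 1, 2 and 3. For the 203 genes that fell 4-fold or more it was -2.37, -2.64 and -2.46. The 5 called genes with the widest spread over the CMA libraries, among those averaging 100 or more, were Fap, Tnn, Asap3, Nos2 and Il18rap, all lowest in library 1. Leaving out CMA library 1 gave 2075 genes higher and 1810 lower.

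The inhibitor C-178 altered part of this response. The CMA effect alone minus the CMA effect in its presence was called for 1137 of 11440 genes (9.94%), 606 of them among the 2224 that CMA raised and 375 among the 2047 that it lowered. Both effects come from the same fit, and they share no library. The effect of CMA alone is part of this difference, however, and it also chose the 2224 and 2047 genes. The counts of 606 and 375 are thus not independent of that choice and are no test. The C-178 plus CMA libraries, of 7.766 to 36.438 M reads, stood further apart from each other than those of the other groups, with a chi-square per gene of 64.4 to 106.5 between pairs, against 2.38 to 24.9 within the other 3 groups. Without library 1, 2 or 3 of that group the difference was positive for 489, 2018 and 744 genes and negative for 291, 1681 and 477, against 685 and 452 with all 12 libraries. The counts fell to between 209 and 378 positive and between 122 and 194 negative when any 1 unstimulated library, C-178 library 2 or 3, or CMA library 2 or 3 was left out. All libraries given the inhibitor also enter the shared spread of the CMA comparison, in which the 6 CMA and unstimulated libraries alone gave 3194 genes higher and 3075 lower. The log2 difference of Tnfaip3 was 4.16 with CMA alone and 0.83 in the presence of C-178, and that of Isg15 was 4.45 alone and 4.42 in its presence. The difference was 3.33 ± 0.31 for Tnfaip3 (adjusted p = 6.5e-05) and 0.03 ± 0.36 for Isg15 (adjusted p = 0.964).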

How the data were processed

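RNA-seq of 12 libraries in 4 groups of 3 was used, from a stranded mRNA kit per the labels' protocols. The deposited table holds a signal per gene, which the authors' column headings call normalised counts. The submitters' processing notes name Bowtie2 2.2.1, limma 3.18.13 and build mm10, while how reads were counted, and whether by strand, is not recorded there. In each library 100% of the deposited values were whole multiples of the value of 1 read (tolerance 0.01), so reads were recovered. The table has 24062 entries, 27 of them with names turned into dates, and 12 further per-sample columns were not used. Of the entries 23613 matched GENCODE M21, from which coordinates, exon lengths and GC content were taken.

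A gene was tested where 3 or more libraries exceeded 10, with limma 3.58.1 (R 4.3.3) on log2(value + 1), all 12 libraries sharing 1 estimate of spread per gene, with Benjamini-Hochberg adjustment over 11440 genes and a threshold of 0.05. For a single gene, an exact permutation test of 3 against 3 cannot go below p = 0.1, so none was used. A fold over a group with no read was taken against a floor of 3 reads over that group, and floors cover counting error only. Alternatives were another pseudocount (0.5, 5), no filter or one above 50, TMM, quantile normalisation, edgeR 4.0.16 and DESeq2 1.42.0 on recovered reads, reads thinned to 7.0495 M, the 6 libraries alone, each library left out, and a GC correction added after the data were seen. Tables were made with pandas 2.3.3 and numpy 2.4.6 under Python 3.11.15, and figures with matplotlib 3.10.9.

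The members and the gene lists were chosen with earlier results of these data known, so list counts and medians are descriptions and carry no test. Genes were named by rule: the top 15 by rise and the top 15 by fall in log2 difference, taken from called genes without overlap and with a mean of at least 100 in the higher group, the 10 highest genes with CMA among those without a read in unstimulated cells, the 15 largest gains and 10 largest losses, the 5 called genes with the widest spread over the CMA libraries, up to 5 rises and up to 4 falls per list, and a fixed set that runs from Ifnb1 to Nr1d1. Other genes named, including list members that were not called, were chosen after their values were seen. Some results of single genes are not reported here.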

Additional observations from a re-analysis of the deposited data

Results flagged for a closer look

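The CMA effect alone differed from the CMA effect in the presence of C-178, tested as an interaction in the same limma fit, with a positive difference for 685 genes and a negative one for 452. Among the fixed genes the difference (effect alone minus effect with C-178, log2) was 6.49 for Ifnb1, 1.05 for Cxcl10, 2.21 for Tnf, 1.30 for Il1b, 1.90 for Nfkbia and 3.33 for Tnfaip3. For genes that fell with CMA alone it was -3.73 for Bmf, -2.65 for Cd300lb and -1.82 for Sesn1, so these falls were larger without the inhibitor. Ifnb1 averaged 1755 normalised counts with CMA alone and 59.4 with C-178 plus CMA.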

How the results depend on the processing

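No paired analysis was possible because one heading stands over 2 of the unstimulated columns, which leaves the groups with fewer than 2 replicate numbers in common, and the planned replicate block was not run. The counts of 2224 genes higher and 2047 lower were 3194 and 3075 with the 6 libraries alone, 1953 and 2667 with quantile normalisation, 2235 and 2047 with edgeR, 2354 and 2031 with DESeq2, 2118 and 1919 with thinned reads and 2186 and 1825 with the GC correction, which was chosen after seeing the data. Leaving out 1 of the 6 libraries gave 1761 to 2075 higher and 1536 to 1810 lower. The interaction counts of 685 and 452 were 642 and 541 with edgeR and ranged from 209 to 2018 and from 122 to 1681 when each of the 12 libraries was left out. The cause of these moves was not tested. Of 5164 values of the named genes under 17 alternatives, 5046 kept direction and side of the threshold, 69 lost a call, 20 gained one, 2 changed sign to a call and 27 changed sign without a call on either side. Under quantile normalisation Ccl9 was at -0.41 and Itgam at -0.48. In the fit on the 6 libraries alone, Arntl, B2m, Clock, Ddit3, Eif2s3y, H2-K1, Hif1a, Hmox1, Ifnar2, Itgam and Kdm5d gained a call. Calls of Abca1, Bst2, Ccl6, Ciita, Col1a1, Col6a1, Csf1r, Hspa1a, Postn, Stab1, Ticam1 and Trem1 were lost when some single libraries were left out.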
